A study of Homo sapiens with 6 samples.

Results

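The RAS and RAF genes and RAS regulators examined here are 7 genes picked by symbol from the 20111 in the table: the GTPases HRAS, NRAS and RRAS, the GTPase-activating proteins RASA1 and NF1, and the kinases BRAF and MAP2K1. Their messenger RNA was measured in MDA-MB-231 cells, an established line of triple-negative breast cancer that is known to carry activating mutations in this pathway. The cells received a control siRNA (siControl), an siRNA against the nuclear receptor coactivator NCOA3 (siNCOA3) or an siRNA against the adaptor SHC1 (siSHC1), and RNA was taken 24 h or 48 h later. There are 6 libraries, 1 for each siRNA and time, so the times serve as the 2 libraries of an siRNA and no response at a single time has a replicate. All groups share the cell line and transfection, and nothing in the labels ties a library to a culture of its own. The p-values therefore cover only the spread among these 6 libraries that is left after siRNA and time. That spread mixes any siRNA-by-time difference with variation that may be technical.

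RAS proteins are membrane-bound switches that are on when they hold GTP. Exchange factors such as SOS1, brought to active receptors by the adaptors SHC1 and GRB2, load them with GTP, and GTPase-activating proteins such as NF1 and RASA1 make them hydrolyse it. RAS in the on state recruits the RAF kinases, which phosphorylate the MEK kinases (MAP2K1 and MAP2K2), which phosphorylate the ERK kinases. RRAS is a relative of the classical RAS proteins that is best known for its effects on integrins and cell adhesion. The siSHC1 comparison thus asks whether transcripts of the switch and its kinases differ when the adaptor upstream of them is depleted, and the siNCOA3 comparison asks the same for the coactivator.

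Values are FPKM, fragment numbers corrected for gene length and for library size, so levels can be set side by side between genes. Total FPKM per library ran from 495518 to 553073 and the scale factors between libraries from 0.947 to 1.02. Levels are printed as FPKM before scaling. Percentages of siControl and log2 values are of scaled FPKM, divided by these factors, and so can differ from ratios of the printed levels. The targets matched the labels, with SHC1 at 13.4% and 13.3% of siControl after siSHC1 at 24 h and 48 h, and NCOA3 at 15.4% and 16.3% after siNCOA3. All 7 markers listed for this line were found, ZEB1 lowest at 12.6 to 20.7 FPKM, and of 7 expected to be low, PGR was listed at 0 throughout and ESR1, CDH1 and FOXA1 stayed under 1 FPKM, while ERBB2 stood at 26.9 to 35.5, EPCAM at 6.65 to 10.7 and GATA3 at 4.67 to 5.56 FPKM. Of 4 leukocyte and endothelial markers in the table, PTPRC, CD3E and VWF stayed under 1 FPKM, and CD14 stood at 3.24 to 7.51 FPKM, while PECAM1 was not analysed here.

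After siSHC1, RRAS rose to 1.52-fold and RASA1 fell by 0.42 on the log2 scale, and these were the 2 of the 7 genes that passed the test. HRAS and MAP2K1 were higher, at 1.21-fold and 1.17-fold, without passing, and NRAS, NF1 and BRAF stood at -0.16, -0.12 and -0.06 on the log2 scale. In bulk RNA, fewer cells that express a gene and less of its RNA in each cell cannot be told apart. After siNCOA3 none of the 7 passed. The test was limma across 11690 genes, with terms for siRNA and time, on log2(scaled FPKM + 1), and a gene was called at a Benjamini-Hochberg adjusted p under 0.05. All 7 genes passed the filter on low values, which asked for at least 1 scaled FPKM in at least 2 libraries.

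**Figure D1:**
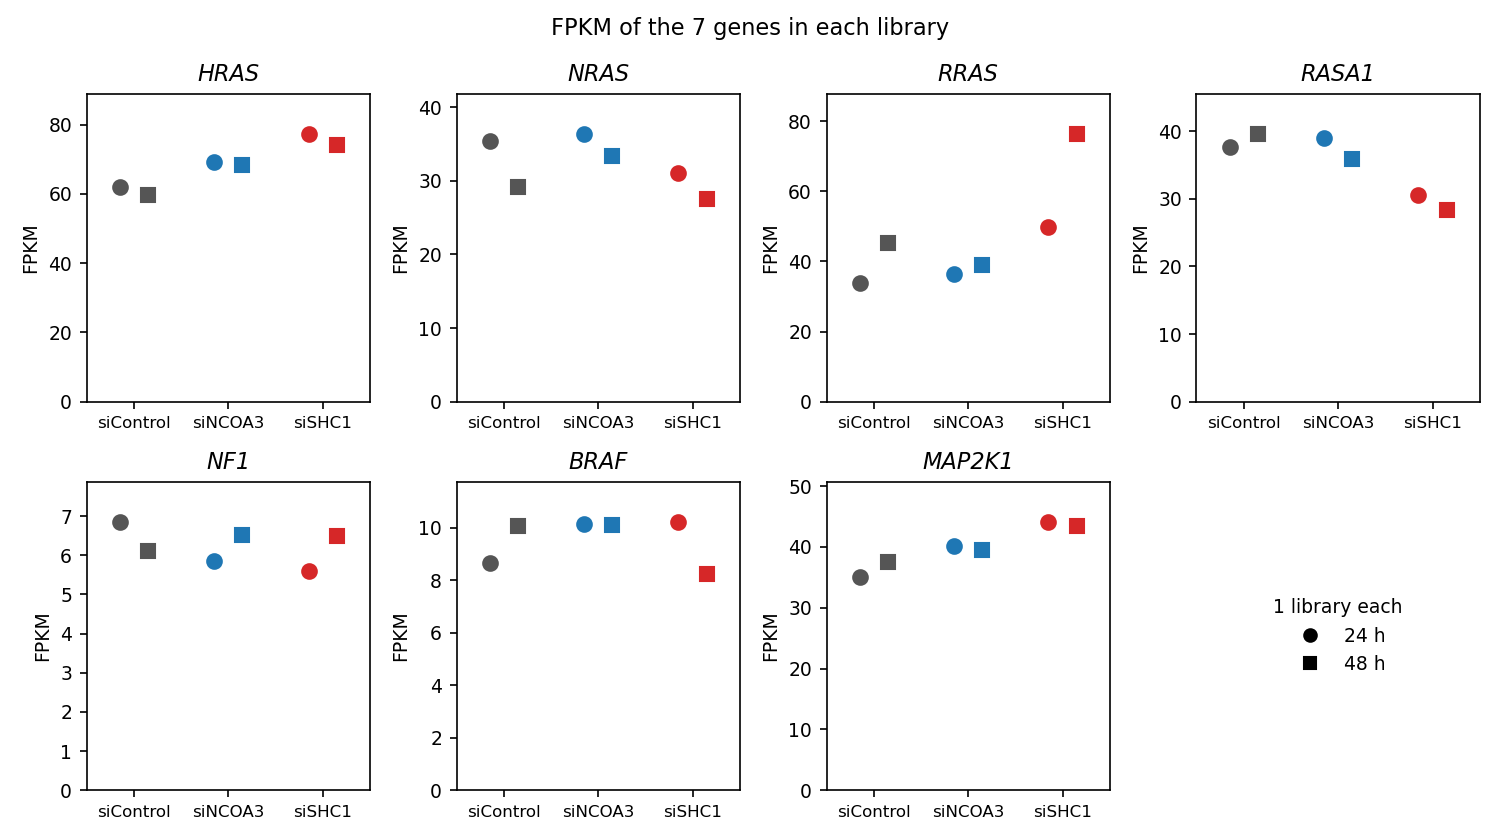
FPKM (y axis, from 0) of HRAS, NRAS, RRAS, RASA1, NF1, BRAF and MAP2K1 by siRNA, with circles for 24 h and squares for 48 h, 1 library per point. Both siSHC1 points lie above the other 4 for RRAS, HRAS and MAP2K1 and below them for RASA1.

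In order of mean level over the 6 libraries, HRAS stood first at 68.4 ± 6.79 FPKM (SD, n = 6), followed by RRAS at 46.8 ± 15.6, MAP2K1 at 40.0 ± 3.44, RASA1 at 35.1 ± 4.69, NRAS at 32.1 ± 3.50, BRAF at 9.57 ± 0.880 and NF1 at 6.23 ± 0.465. The ranges of RRAS, MAP2K1, RASA1 and NRAS overlapped, so their order is not fixed. HRAS and RRAS also overlapped, through the siSHC1 library of 48 h. BRAF and NF1 lay below all the others in each library, and the lowest BRAF value, 8.23 FPKM, was above the highest NF1 value, 6.85 FPKM. RRAS varied most, with a highest value 2.25 times its lowest. For the other 6 genes this ratio ran from 1.22 (NF1) to 1.40 (RASA1).

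HRAS encodes one of the classical RAS proteins. At 24 h it stood at 62.0 FPKM after siControl, 69.3 after siNCOA3 and 77.4 after siSHC1, and at 48 h at 59.7, 68.3 and 74.0 FPKM. The order of the 3 siRNAs was thus the same at both times, with both siSHC1 libraries highest, both siControl libraries lowest and no overlap between siRNAs. In the fit HRAS differed by 0.28 ± 0.08 on the log2 scale between siSHC1 and siControl (SE, 2 libraries of each siRNA, limma adjusted p = 0.0877, 95% interval 0.09 to 0.46), which did not pass. The difference of siNCOA3 from siControl was 0.13 (95% interval -0.06 to 0.31, limma adjusted p = 0.641).

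NRAS, another classical RAS, stood at 35.3, 36.4 and 31.1 FPKM after siControl, siNCOA3 and siSHC1 at 24 h, and at 29.1, 33.3 and 27.5 FPKM at 48 h. The siSHC1 library was the lowest at each time, yet the siSHC1 library of 24 h lay above the siControl library of 48 h, so these groups overlapped. The fitted difference of siSHC1 from siControl was -0.16 ± 0.10 (SE, 2 libraries of each siRNA, limma adjusted p = 0.338, 95% interval -0.39 to 0.07), and that of siNCOA3 was 0.07 (95% interval -0.17 to 0.30, limma adjusted p = 0.855). NRAS was lower at 48 h than at 24 h under each siRNA, with values of -0.37 after siControl, -0.10 after siNCOA3 and -0.15 after siSHC1 on the log2 scale, and the fitted value of -0.21 ± 0.08 did not pass (SE, 3 libraries of each time, limma adjusted p = 0.330). The ratio of HRAS to NRAS FPKM was 2.49 and 2.69 in the siSHC1 libraries, against 1.75 to 2.05 in the other 4, a ratio chosen after the values were seen and not tested.

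RRAS stood at 33.9, 36.5 and 49.8 FPKM after siControl, siNCOA3 and siSHC1 at 24 h, and at 45.3, 38.9 and 76.4 FPKM at 48 h. The siSHC1 library of 48 h was the highest by far, and the siSHC1 library of 24 h was only a little above the siControl library of 48 h, so that the groups did not overlap but came close. By scaled FPKM, RRAS after siSHC1 stood at 137% of siControl at 24 h and 172% at 48 h. In the fit RRAS rose by 0.61 ± 0.13 in log2 units (SE, 2 libraries of each siRNA, limma adjusted p = 0.0415, 95% interval 0.31 to 0.90). Against siNCOA3 it rose by 0.71 ± 0.13 (limma adjusted p = 0.0209), with values of 0.46 at 24 h and 0.97 at 48 h. After siNCOA3 it differed from siControl by -0.11 (95% interval -0.40 to 0.19, limma adjusted p = 0.818), with overlapping libraries. Its level was higher at 48 h than at 24 h under each siRNA, by 0.31 after siControl, 0.11 after siNCOA3 and 0.63 after siSHC1, with a fitted value of 0.35 ± 0.10 that did not pass (SE, 3 libraries of each time, limma adjusted p = 0.288).

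The rise of RRAS after siSHC1 kept its direction in all 12 alternatives, between 0.40 and 0.81, but the call was lost in 7 of them (limma adjusted p from 0.0107 to 0.185 over the alternatives). It was lost without the siControl library of 24 h (0.63, adjusted p = 0.179), without that of 48 h (0.57, adjusted p = 0.185) and without the siSHC1 library of 48 h (0.40, adjusted p = 0.185).

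RASA1, which encodes a GTPase-activating protein that binds activated receptors through SH2 domains, stood at 37.7, 38.9 and 30.5 FPKM after siControl, siNCOA3 and siSHC1 at 24 h, and at 39.6, 35.8 and 28.3 FPKM at 48 h. Both siSHC1 libraries were lower than the other 4, and the siControl and siNCOA3 libraries overlapped. What remained after siSHC1, by scaled FPKM, was 75.7% of siControl at 24 h and 72.7% at 48 h. In the fit it fell by 0.42 ± 0.08 in log2 units (SE, 2 libraries of each siRNA, limma adjusted p = 0.0357, 95% interval -0.61 to -0.23), and the value was -0.39 at 24 h and -0.45 at 48 h. Against siNCOA3 the difference was -0.32 ± 0.08 (limma adjusted p = 0.0518), just short of the threshold, and siNCOA3 differed from siControl by -0.10 (95% interval -0.29 to 0.09, limma adjusted p = 0.723).

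The fall of RASA1 had the same direction in all 12 alternatives, between -0.48 and -0.38, while the call was lost in 8 (limma adjusted p from 0.0246 to 0.168 over the alternatives). These included leaving out either siControl library (-0.45 without 24 h, adjusted p = 0.142; -0.39 without 48 h, adjusted p = 0.168) or either siSHC1 library (-0.43 without 24 h, adjusted p = 0.0920; -0.41 without 48 h, adjusted p = 0.162). Of the bases in RASA1 exons 14.7% also lie in exons of CCNH, on the opposite strand (GENCODE 29), and whether the counting used strand is not given in the sources used here. CCNH itself stood at 18.8 to 21.4 FPKM and differed by 0.03 between siSHC1 and siControl (limma adjusted p = 0.845).

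NF1 encodes neurofibromin, the other GTPase-activating protein among the 7, and had the lowest level. Its values were 6.85, 5.84 and 5.61 FPKM after siControl, siNCOA3 and siSHC1 at 24 h, and 6.10, 6.51 and 6.49 FPKM at 48 h. The siControl library was the highest at 24 h and the lowest at 48 h, so the knockdowns lay below it at one time and above it at the other. The fitted difference was -0.12 ± 0.14 for siSHC1 (SE, 2 libraries of each siRNA, limma adjusted p = 0.635, 95% interval -0.44 to 0.21) and -0.10 for siNCOA3 (95% interval -0.43 to 0.23, limma adjusted p = 0.840). NF1 has 12 pseudogenes that carry its name in the annotation, and how the authors' quantification assigned reads shared with them is not given in the sources used here. RASA1 and NF1 therefore gave different values for the same comparison, but the difference between them was not tested.

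BRAF encodes a kinase that RAS in the on state recruits to the membrane. It stood at 8.67, 10.1 and 10.2 FPKM after siControl, siNCOA3 and siSHC1 at 24 h, and at 10.1, 10.1 and 8.23 FPKM at 48 h. The siControl library of 24 h and the siSHC1 library of 48 h were low and the other 4 lay close together, so no siRNA stood apart. The fitted difference of siSHC1 from siControl was -0.06 ± 0.12 (SE, 2 libraries of each siRNA, limma adjusted p = 0.810, 95% interval -0.34 to 0.23), and that of siNCOA3 was 0.06 (95% interval -0.23 to 0.35, limma adjusted p = 0.897). In the 6 libraries BRAF stood at 0.214 to 0.311 of the FPKM of its paralog ARAF, which ran from 32.8 to 40.4 FPKM. Exons of NDUFB2, a gene of mitochondrial complex I on the opposite strand, hold 5.29% of the BRAF exon bases. NDUFB2 was the more abundant by far at 126 to 179 FPKM, and it differed by 0.20 between siSHC1 and siControl (limma adjusted p = 0.139).

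MAP2K1 encodes MEK1, the kinase directly below RAF. It stood at 35.1, 40.1 and 44.1 FPKM after siControl, siNCOA3 and siSHC1 at 24 h, and at 37.6, 39.5 and 43.5 FPKM at 48 h. As with HRAS, the siSHC1 libraries were highest and the siControl libraries lowest at both times, with no overlap between the siRNAs. The values hardly differed between the times, at 0.23 on the log2 scale for siSHC1 at 24 h and again 0.23 at 48 h. In the fit this was 0.23 ± 0.08 (SE, 2 libraries of each siRNA, limma adjusted p = 0.125, 95% interval 0.04 to 0.42), which did not pass. The paralog MAP2K2, which encodes MEK2, was far more abundant at 204 to 269 FPKM and differed by 0.19 ± 0.07 (limma adjusted p = 0.134). MAP2K1 held 0.160 to 0.185 of the MAP2K2 level in every library, with no siRNA apart from the others. Of the bases in MAP2K1 exons 11.5% also lie in exons of the antisense gene AC116913.1 and 5.75% in those of SNAPC5, both on the opposite strand. SNAPC5 stood at 6.74 to 9.15 FPKM. MAP2K1 and BRAF each have 1 pseudogene that carries the gene's name in the annotation.

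**Figure D2:**
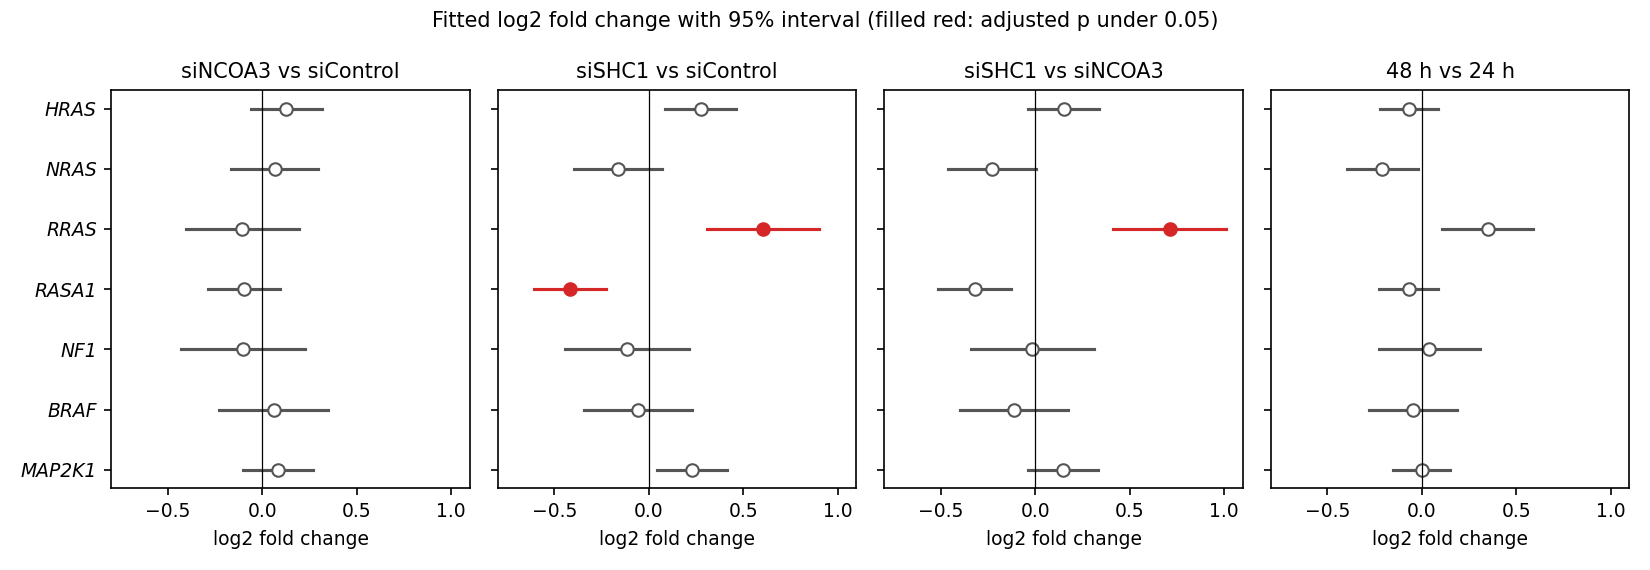
Fitted log2 fold change (x axis) of each of the 7 genes in 4 comparisons, with lines for the 95% interval and filled red points for genes with a limma adjusted p under 0.05. RRAS is called in both comparisons of siSHC1 and RASA1 in that with siControl; no gene is called after siNCOA3 or between the times.

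The 7 genes were chosen with earlier results of these data known, so the shares here cannot be read as an excess over all genes. Counted over the 7 genes, 2 were called after siSHC1 against siControl, 1 higher and 1 lower, where 6.42% of all 11690 genes were called. At an unadjusted p under 0.05 the genes were 4 of 7, with HRAS and MAP2K1 added, against 26.3% of all genes. The median of the 7 was -0.06, and that of all genes 0.004. With siSHC1 against siNCOA3, 1 of 7 was called (RRAS), against 9.74% of all genes, and 2 of 7 had an unadjusted p under 0.05, against 29.4%. After siNCOA3, limma called 0 of 7 and 0 had an unadjusted p under 0.05, where 0.111% and 10.5% of all genes did. Between 48 h and 24 h limma called 0 of 7, with NRAS and RRAS at an unadjusted p under 0.05, where the shares of all genes were 0.0257% and 14.2%. The comparisons with siControl share the same 2 siControl libraries and are not independent of each other.

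**Figure D3:**
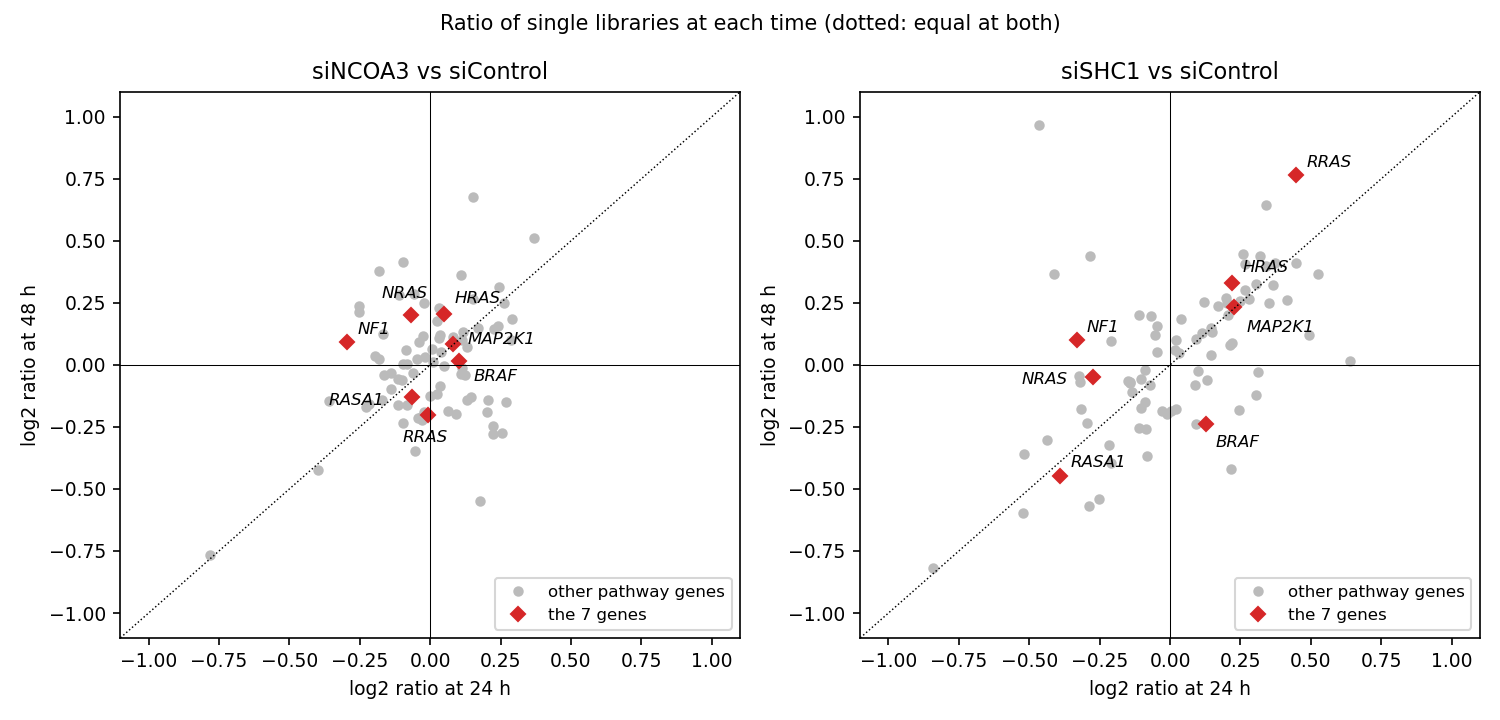
Log2 ratio to siControl at 24 h (x axis) and at 48 h (y axis) for the 7 genes (red diamonds) and the other genes of the pathway lists (grey). Each point is a ratio of 2 single libraries, from scaled FPKM. After siSHC1 RRAS, HRAS, MAP2K1, RASA1 and NRAS have the same sign at both times, and NF1 and BRAF do not.

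The other genes of the pathway came from 9 lists by role, 88 genes besides the 7, of which 78 passed the filter. After siSHC1 3 of these 78 fell and 0 rose (3.85%, against 6.42% of all genes), and their median was 0.04. The falls were in RAP2B, a RAS-related GTPase, ICMT, the enzyme that methylates the processed C-terminus of RAS proteins, and YWHAZ, a 14-3-3 protein of the kind that binds phosphorylated RAF. RAP2B stood at 11.2 FPKM after siControl and 6.21 FPKM after siSHC1 at 24 h, with 10.9 and 5.64 FPKM at 48 h, and fell by 0.83 ± 0.10 (limma adjusted p = 0.0105). ICMT fell by 0.44 ± 0.09 (limma adjusted p = 0.0360) and YWHAZ by 0.27 ± 0.06 (limma adjusted p = 0.0481). YWHAZ, at 486 to 618 FPKM, was the most abundant of the 3.

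Among the 7 genes of the RAS GTPase list 1 rose after siSHC1 (RRAS) and 0 fell. MRAS, which with SHOC2 forms a phosphatase complex that activates RAF, had a low level of 2.38 to 6.28 FPKM and differed by 0.45 ± 0.12 from siControl (limma adjusted p = 0.0749). Against siNCOA3 MRAS rose by 0.57 ± 0.12 (limma adjusted p = 0.0335). RIT1 differed by 0.14 (limma adjusted p = 0.347) and RRAS2, a close relative of RRAS, by -0.12 (limma adjusted p = 0.448), at 24.8 to 30.3 FPKM.

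Of the 10 GTPase-activating proteins 8 passed the filter, and 1 fell after siSHC1 (RASA1), with 4 above 0 and 4 below. RASAL1 was listed at 0 in all 6 libraries and RASAL3 was below the filter. DAB2IP, which acts on RAS and binds other signalling proteins, had 18.1 and 24.2 FPKM after siControl, 18.9 and 18.7 after siNCOA3 and 25.4 and 32.0 after siSHC1. Its difference of 0.39 ± 0.11 from siControl did not pass (limma adjusted p = 0.0810), and against siNCOA3 it rose by 0.59 ± 0.11 (limma adjusted p = 0.0230). RASA3, at 14.8 to 18.2 FPKM, differed by -0.26 (limma adjusted p = 0.119) and RASA2, at 4.20 to 5.97 FPKM, by -0.11 (limma adjusted p = 0.591). RASA1 was thus the member of this list with the lowest fitted value.

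The exchange factors SOS1 (9.15 to 11.2 FPKM) and SOS2 (9.83 to 11.6 FPKM) differed by -0.08 and -0.10 after siSHC1. The other exchange factors that passed the filter were low in level and stood above 0, RASGRP3 (2.15 to 3.90 FPKM) at 0.49 (limma adjusted p = 0.0759) and RASGRF1 (1.82 to 3.35 FPKM) at 0.34 (limma adjusted p = 0.162). With a median of 0.13, 0 of these 4 were called. RASGRP3 also stood above siControl after siNCOA3, by 0.44 (limma adjusted p = 0.362), and differed by 0.05 between siSHC1 and siNCOA3. RASGRF1 differed by -0.19 after siNCOA3 (limma adjusted p = 0.672). None of the 7 RAF, MEK and ERK kinases was called in either comparison with siControl. After siSHC1 MAPK3, which encodes the kinase ERK1, differed by -0.05 (limma adjusted p = 0.794) and ARAF by -0.18 (limma adjusted p = 0.275). Of the 8 adaptors upstream of RAS 6 passed the filter and 0 were called, with a median of -0.34 against 0.004 for all genes. GAB2 stood at -0.56 (limma adjusted p = 0.0616), GAB1 at -0.43 (limma adjusted p = 0.0963), SHC3 at -0.37 (limma adjusted p = 0.0972) and PTPN11, the phosphatase SHP2, at -0.30 (limma adjusted p = 0.0973). The other tested adaptors were above 0, with FRS2 at 0.23 (limma adjusted p = 0.306) and GRB2, the partner of SHC1, at 0.20 (limma adjusted p = 0.205).

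With siSHC1 against siNCOA3, 9 of the 85 tested genes of the lists were called, 5 higher and 4 lower, a share of 10.6% against 9.74% of all genes. Besides RRAS, MRAS and DAB2IP, the rises were in GRB2 by 0.46 ± 0.09 (limma adjusted p = 0.0279) and PHLDA1 by 1.03 ± 0.07 (limma adjusted p = 0.00149). RAP2B fell by 0.82 ± 0.10 (limma adjusted p = 0.0076) and the adaptor SHC3 by 0.56 ± 0.11 (limma adjusted p = 0.0297). Smaller falls were in PPP1CC, a catalytic subunit of protein phosphatase 1, by 0.30 ± 0.07 (limma adjusted p = 0.0395) and YWHAZ by 0.28 ± 0.06 (limma adjusted p = 0.0349). These are differences between the knockdowns, and either side can move them. After siNCOA3, by scaled FPKM, GRB2 stood at 77.6% and 90.1% of siControl at 24 h and 48 h, and PHLDA1 at 57.6% and 58.3%. SHC3 stood at 120% and 112%, PPP1CC at 113% and 111%, RAP2B at 93.8% and 105%, and YWHAZ at 101% at both times.

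The 10 ERK output genes, transcripts commonly read as a gauge of ERK activity, gave 0 calls after siSHC1, with 1 at an unadjusted p under 0.05 (limma), and a median of 0.03. PHLDA1 stood at 0.25 (limma adjusted p = 0.0863), DUSP6 at -0.07 and SPRY4 at 0.03. After siNCOA3 1 of the 10 fell, PHLDA1 by 0.77 ± 0.07 (limma adjusted p = 0.0228), and it was also the 1 gene called among the 85 tested genes of all lists. That call was lost in 7 of 12 alternatives, among them leaving out either siControl library or either siNCOA3 library.

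**Figure D4:**
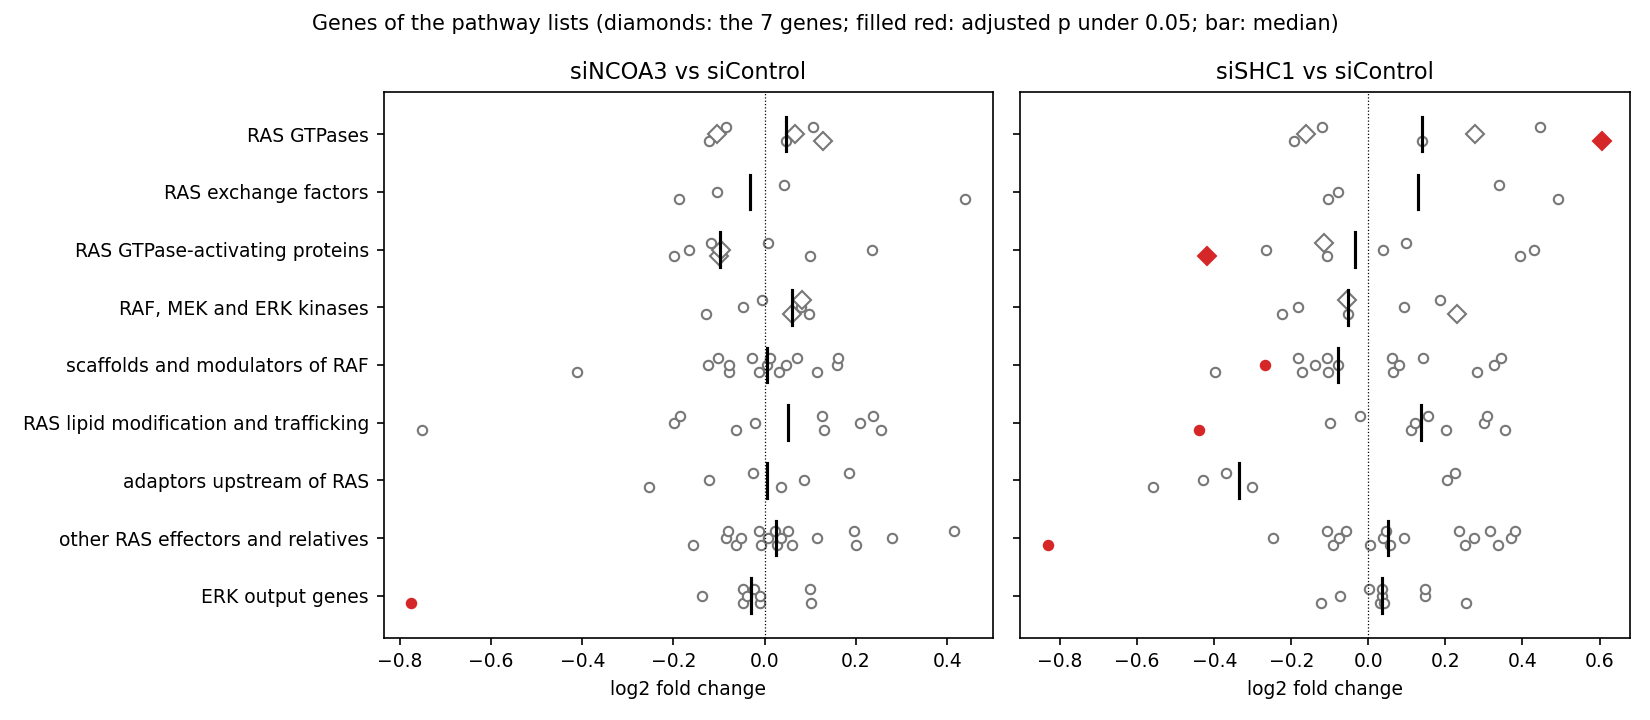
Log2 fold change (x axis) of the genes of 9 pathway lists (rows) after siNCOA3 and siSHC1 against siControl, with the 7 genes as diamonds, called genes filled red and black bars for the medians. The called genes after siSHC1 are RRAS, RASA1, YWHAZ, ICMT and RAP2B, and the 1 called gene after siNCOA3 is PHLDA1.

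The word GCCCATC had been picked in an earlier search of these same fold changes as one that is common in the 3′ UTRs of genes that fell after siSHC1, so its presence supports nothing by itself. In the longest annotated 3′ UTR of each gene (GENCODE 29, GRCh38) it was found in 41.5% of the genes called lower after siSHC1, 5.90% of those called higher and 8.98% of all 11375 tested genes with a 3′ UTR. Among the 7 genes BRAF has it, once, and HRAS, NRAS, RRAS, RASA1, NF1 and MAP2K1 do not. RASA1 fell without the word in its 3′ UTR of 1048 bases, and BRAF, with the word, differed by -0.06. Of the 85 tested genes of the lists 10 hold it (11.8%), among them all 3 that fell besides RASA1, namely RAP2B and YWHAZ with 2 copies each and ICMT with 1. SPRED2, an inhibitor of RAF activation, differed by -0.40 (limma adjusted p = 0.0815) and ERBB2IP by -0.18 (limma adjusted p = 0.232), while ZDHHC9 and RAP1B, which also hold the word, stood at 0.20 and 0.09 (limma adjusted p = 0.195 and 0.643). After siNCOA3 ERBB2IP differed from siControl by -0.41 (limma adjusted p = 0.237) and SPRED2 by 0.006, and neither passed. The sites of BRAF, RAP2B, ICMT, SPRED2 and ERBB2IP are shown to let the surroundings of the word be compared, in sense orientation, 5′ to 3′, with the word in capitals.
BRAF (chromosome 7, bases 4825 to 4831 of a 3′ UTR of 7167): ttactgatGCCCATCggtagttg
RAP2B (chromosome 3, bases 190 to 196 of 7375): ccggtcctGCCCATCcgatactc
RAP2B (bases 5497 to 5503 of 7375): tttagtttGCCCATCtgataaag
ICMT (chromosome 1, bases 1994 to 2000 of 3887): acggacttGCCCATCggccctca
SPRED2 (chromosome 2, bases 639 to 645 of 2650): tatctttaGCCCATCatcatttt
ERBB2IP (chromosome 5, bases 3873 to 3879 of 4019): acgcatctGCCCATCtagcttct
The 5 genes shown ran from -0.83 (RAP2B) to -0.06 (BRAF) on the log2 scale after siSHC1. For siNCOA3 the corresponding word of that search, GTCAAGA, is in none of the 7 genes. It is in 6 of the 13 genes called lower after siNCOA3 (46.2%) and in 9.47% of all tested genes with a 3′ UTR. It too was picked from these same fold changes, so these shares support nothing by themselves. Of the 85 tested genes of the lists 15 hold it (17.6%). These include PHLDA1, with 2 copies, and the other 14 were not called after siNCOA3.

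The 2 genes that varied most over the 6 libraries were RRAS and RASA1, and the genes most like them were sought by Pearson correlation of log2(scaled FPKM + 1) over these 6 libraries, taken over 8925 genes whose mean was 5 FPKM or more. Nearest to RRAS were the heat shock genes HSPA1B and HSPA1A (r = 0.997 for both), near-identical copies whose reads are hard to tell apart, and the chloride channel protein CLIC3 (r = 0.995). CLIC3 stood at 14.4, 17.0 and 24.5 FPKM after siControl, siNCOA3 and siSHC1 at 24 h and at 21.6, 17.4 and 39.1 FPKM at 48 h. Like RRAS it was thus highest after siSHC1 at 48 h and higher after siControl at 48 h than at 24 h. Nearest to RASA1 were NFKB1, the p105 and p50 subunit of NF-kB (r = 0.998), the lectin receptor CD302 (r = 0.994) and the kinase HIPK1 (r = 0.991). NFKB1 stood at 21.4, 22.3 and 15.4 FPKM at 24 h and at 22.9, 19.5 and 14.3 FPKM at 48 h. With 6 libraries such values are common: 288 genes had an r over 0.95 with RRAS and 119 with RASA1, and all share the same libraries.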

How the data were processed

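RNA had been extracted with Trizol and made into stranded mRNA libraries, per the labels' protocols. The submitters' processing notes name STAR, Cufflinks, DESeq2 and hg19, with no roles or versions. Annotation, filters and the use of strand in counting are steps no label or header records. The table the authors deposited is named for read counts but holds FPKM: values are not whole and low values step by less in longer genes. Fragment totals are therefore unknown and no counting interval is given. All 6 sample columns were used. FPKM were scaled by the median of ratios over 11042 genes with at least 1 FPKM in every library. Genes with at least 1 scaled FPKM in at least 2 libraries were tested on log2(scaled FPKM + 1), pseudocount 1, which understates changes of low genes, with limma 3.58.1 in R 4.3.3 (eBayes with trend and robust moderation). Additive terms for siRNA and time leave 2 residual degrees of freedom, and a siRNA-by-time difference enters the error. P-values were adjusted by Benjamini-Hochberg over all genes.

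Each result was recomputed with no scaling, with library totals made equal, with a pseudocount of 0.1, without the filter, without the other term of the model, with plain eBayes and without each library in turn. The named genes are the 7, the targets, genes of the pathway lists called against siControl (up to 4 by role and comparison), others of the same roles as values, and the 3 genes most alike in pattern to each of the 2 most variable of the 7. The list genes called against siNCOA3 alone, adaptors, exchange factors, uncalled ERK output genes, opposite-strand neighbours and other genes with the word were named after their values were seen. The members and lists were chosen with earlier results of these data known. 3′ UTRs of at least 30 bases came from GENCODE 29 transcripts (GRCh38) matched by symbol, for 97.3% of tested genes. The UTR search ran in Python 3.11.15 with pandas 2.3.3, and plots were drawn with matplotlib 3.10.9.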

Additional observations from a re-analysis of the deposited data

Results flagged for a closer look

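For 3 of the 7 genes the log2 ratio of scaled FPKM between siRNAs had opposite signs at 24 h and 48 h. With 1 library for each siRNA and time this difference was not tested, and each value below is the ratio at 48 h minus that at 24 h. NRAS differed by 0.27 for siNCOA3 against siControl. At 24 h its siNCOA3 level was above siControl before scaling (36.4 and 35.3 FPKM) and at 95.2% of it after. The sign of NRAS at 24 h thus rests on the scaling. NF1 differed by 0.39 for siNCOA3 against siControl and by 0.43 for siSHC1 against siControl, and both rest on a siControl library that was highest at 24 h and lowest at 48 h. For siSHC1 against siNCOA3 the NF1 value was 0.044, with both ratios near 0. At 48 h NF1 stood at 6.49 FPKM after siSHC1 and 6.51 after siNCOA3 before scaling, and siSHC1 was the higher only after it. BRAF differed by -0.36 for siSHC1 against siControl and by -0.28 for siSHC1 against siNCOA3, with its lowest level in the siSHC1 library of 48 h.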

How the results depend on the processing

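Of the alternative values of the 7 genes, 296 kept their direction and side of the threshold, 19 lost the call, 1 gained it and 20 changed sign. With siSHC1 against siControl, 2 of the 7 genes were called, against 1 with no scaling (RRAS), 1 with equal library totals (RASA1) and 0 with no filter, without the time term or with plain eBayes. Leaving out 1 library gave 0 to 2, with 0 without either siControl library or the siSHC1 library of 48 h and 1 (RRAS) without that of 24 h. With siSHC1 against siNCOA3 the count of 1 became 2 with equal library totals and 0 with no filter or without the time term, and 0 to 1 without single libraries, with 0 without the siNCOA3 or the siSHC1 library of 48 h. For the pathway lists the 5 genes called after siSHC1 became 3 with no scaling, 0 with no filter, 1 without the time term, 2 with plain eBayes and 0 to 6 without single libraries. Their 9 calls with siSHC1 against siNCOA3 became 0, 4 and 1 to 8 with no filter, without the time term and without single libraries. The 1 call after siNCOA3 became 0 with no scaling, no filter or plain eBayes, and 0 to 1 without single libraries, with 0 without each siControl or siNCOA3 library. Without the filter 16511 genes were tested and limma called 2 in all after siSHC1.

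The sign changes were all in values that were not called. Leaving out single libraries, NRAS ran from -0.057 to 0.19 and RRAS from -0.28 to 0.073 for siNCOA3 against siControl. NF1 ran from -0.31 to 0.10 for siNCOA3, from -0.32 to 0.085 for siSHC1, from -0.13 to 0.10 for siSHC1 against siNCOA3 and from -0.042 to 0.18 between the times. BRAF ran from -0.055 to 0.17, -0.22 to 0.10, -0.28 to 0.046 and -0.12 to 0.059 in the same order. MAP2K1 between the times ran from -0.0032 to 0.00064, and was 0.019 with no scaling. No other scaling moved the median of all genes by as much as 0.1 in any comparison. The cause of these changes was not tested. Where a library is left out, the lone library of that siRNA is assumed to vary like the others. Fragment totals are unknown, so what depth limits cannot be given. The time term pairs the libraries by time, and the values without it are the unpaired ones.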
